A study of Mus musculus with 52 samples.

Results

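The genes described here are those of the IL-12, IL-18 and IL-27 axis: the chains of the 3 cytokines, the decoy that binds IL-18, and the receptor chains of IL-12 and IL-18. They were chosen by name, as 10 listed gene symbols, and all 10 were found among the 27525 genes of the table of normalized counts. Il12a and Il12b encode the chains of IL-12, Il27 and Ebi3 those of IL-27, and Il18 encodes IL-18. Il18bp encodes the secreted IL-18 binding protein, Il12rb1 and Il12rb2 the IL-12 receptor, and Il18r1 and Il18rap the IL-18 receptor.

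IL-12 is made by dendritic cells and macrophages and drives T cells toward the TH1 program through STAT4, with IFN-γ as the main product. IL-18 is stored as a precursor, is cut by caspase-1 in inflammasomes, and acts with IL-12 on T cells and natural killer cells. IL-18 binding protein is itself induced by IFN-γ and captures free IL-18. IL-27 belongs to the IL-12 family, and Ebi3 can also pair with the Il12a chain to form IL-35.

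Bulk RNA-seq was performed on individual subcutaneous KPC tumors, with 8 tumors in each of 4 groups and no pooling of animals. KPC cells derive from a pancreatic tumor of genetically engineered mice that carry the Trp53 LSL.R172H/+ allele with Pdx1-Cre, which acts in the pancreas, and they were injected into the flank of immunocompetent male C57BL/6NHsd mice aged 8 to 10 weeks, so every group, the untreated one included, carried the same mutant tumor cells. Treatment began 10 days later at about 100 mm3, and all tumors were taken on day 14 of treatment. Untreated tumors received neither agent. ADU-S100 tumors received a single intratumoral dose of 2 µg of this STING agonist. Anti-LTβR tumors came from mice given 4 intraperitoneal doses of 100 µg of the agonistic antibody 4H8, the last on day 10. Combination tumors received both agents on the same schedules. The study asked whether both pathways together bring lymphoid structures into tumors that lack them, and sequencing was used to describe the immune makeup of the resected tumors. A flank tumor holds skin and muscle of the host beside pancreatic tumor cells, and the panels of keratinocyte and skeletal muscle markers were detected in every tumor.

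Per library, 12762453 to 15591986 reads were recovered from a larger deposited table (median 14932388). Levels below are normalized counts, that is, the reads of a gene scaled by the size factor of its library. Fold changes are differences of log2(normalized count + 1) from limma's trend test over all genes, which understates the change of low genes, and adjusted p-values are by the Benjamini-Hochberg method over all genes of a comparison. The numbers 1 to 8 only name the tumors of a group.

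**Figure D1:**
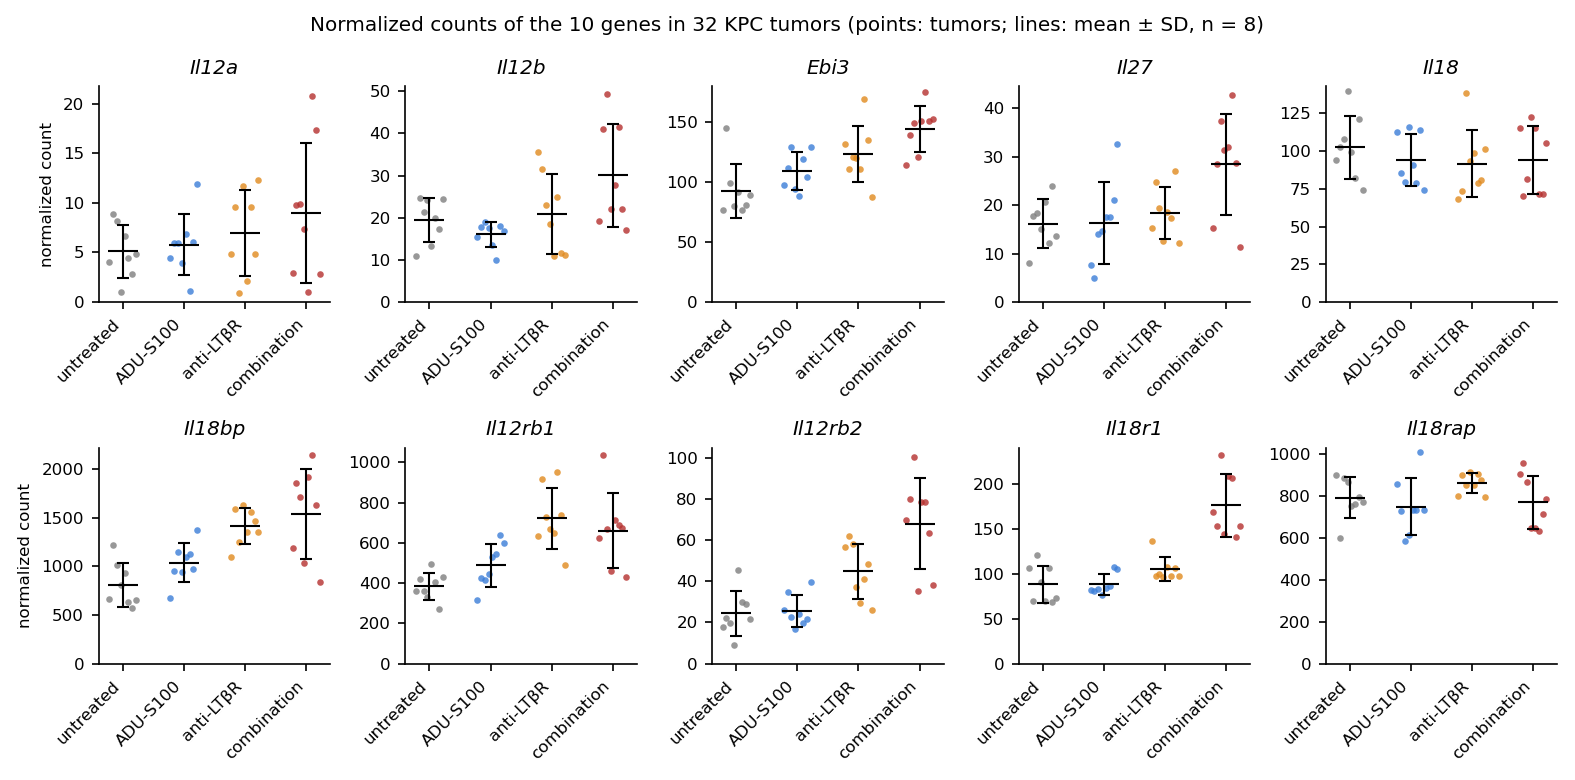
Normalized counts of the 10 genes (vertical axes, each from 0) in the 4 treatment groups (horizontal axes). Points are tumors, and lines are means with SD over 8 tumors. Il18r1 stands apart in combination tumors (140.8 to 232.5), while Il18 spans about the same values in all groups.

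The 250 bases before the RefSeq start site (GRCm38.p6) are shown for the 2 receptor chains and the cytokine chain whose combination and untreated tumors differed with the smallest adjusted p-values, to show which short motifs of the IFN-γ, interferon, NF-κB and T-bet pathways they hold. RefSeq windows were found for 8 of the 10 genes, and not for Il12rb1 and Il27. Motifs were searched on both strands as GAS (TTCNNNGAA), ISRE (GAAA, any 2 bases, then GAAA), kappaB (GGG, any 5 bases, then CC) and T-box (TCACACCT), which occur in 7.04%, 2.98%, 46.0% and 1.12% of 32536 such windows. Matches are in capitals.
Il12rb2 (chr6:67376189-67376438, minus strand): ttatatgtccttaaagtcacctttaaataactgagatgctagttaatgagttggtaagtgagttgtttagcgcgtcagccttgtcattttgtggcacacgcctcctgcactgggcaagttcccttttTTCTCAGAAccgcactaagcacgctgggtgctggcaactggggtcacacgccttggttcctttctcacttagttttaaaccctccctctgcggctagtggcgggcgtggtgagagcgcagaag
Ebi3 (chr17:55952373-55952622, plus strand): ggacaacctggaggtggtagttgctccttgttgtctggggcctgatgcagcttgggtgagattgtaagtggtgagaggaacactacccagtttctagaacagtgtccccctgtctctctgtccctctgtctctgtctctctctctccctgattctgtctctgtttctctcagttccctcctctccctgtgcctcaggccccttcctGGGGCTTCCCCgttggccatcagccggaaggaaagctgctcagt
Il18r1 (chr1:40465302-40465551, plus strand): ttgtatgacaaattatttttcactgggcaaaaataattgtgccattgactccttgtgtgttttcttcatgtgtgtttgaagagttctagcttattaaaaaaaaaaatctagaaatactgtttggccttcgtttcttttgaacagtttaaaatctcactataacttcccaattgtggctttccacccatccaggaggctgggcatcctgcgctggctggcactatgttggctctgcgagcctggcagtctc
The Il12rb2 window holds 1 GAS match, from -123 to -115 relative to the start site. The Ebi3 window holds 2 kappaB matches that overlap, from -44 to -35 and from -43 to -34. The windows of Il18r1, Il12a, Il12b, Il18, Il18bp and Il18rap hold 0 matches to these letters. A match is a description of the sequence and was not tested as a binding site.

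Levels between genes can be compared only per length of transcript. Per kilobase of annotated exon in untreated tumors, Il18bp was highest at 268 ± 75.1 normalized counts (SD, n = 8), and Il18rap followed at 118 ± 14.4. Il18 (99.6 ± 20.3), Il12rb1 (93.6 ± 16.6) and Ebi3 (79.8 ± 19.6) came next and overlapped each other and Il18rap. Below these, without overlap, Il18r1 was at 18.3 ± 4.33 and Il27 at 15.9 ± 4.91, again with overlapping tumors. Il12b (9.92 ± 2.64), Il12rb2 (6.42 ± 2.85) and Il12a (3.01 ± 1.56) were lowest, each overlapping its neighbor in this order. The receptor chains were thus unequal per length, with Il12rb1 above Il12rb2 and Il18rap above Il18r1 without overlap in untreated tumors (lowest Il12rb1 66.0 against highest Il12rb2 12.03, and lowest Il18rap 88.9 against highest Il18r1 25.2).

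In combination tumors 6 of the 10 genes were higher than in untreated tumors and 0 were lower, while 19.6% of 16909 genes tested were higher and 23.6% lower. The genes that rose were Il12rb2, Il18r1, Il18bp, Il12rb1, Il27 and Ebi3. In either direction 43.2% of all genes were called, and the median log2 fold change was 0.69 over the 10 genes and -0.02 over all genes tested. At a change of 2-fold or more besides the adjusted p, 1 gene passed (Il12rb2), against 5.16% of all genes in the higher and 0.952% in the lower direction. Il18r1 lay just below 2-fold, with a log2 fold change of 0.9989.

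In bulk tumors more cells of a type and more RNA per cell cannot be told apart. Ptprc, the gene of the pan-leukocyte antigen CD45, ran from 1310 to 1861 normalized counts in untreated and from 2007 to 2952 in combination tumors without overlap. All 5 T cell markers (Cd3d, Cd3e, Cd3g, Cd2 and Trac) were higher in combination tumors, with summed levels of 791 to 1395 against 397 to 992. Of 4 natural killer cell markers 0 passed (137 to 239 against 120 to 202), and of 7 macrophage markers 4 were higher (23170 to 35520 against 17430 to 31840). Higher as well were 4 of 5 B cell, 2 of 2 CD8 T cell and 2 of 3 plasma cell markers (1 lower), Cd4, 1 of 5 neutrophil markers, and 2 of 4 markers of type 1 conventional dendritic cells (1 lower). All 5 fibroblast markers rose without overlap of the sums (100600 to 372700 against 58680 to 93930), as did all 4 endothelial markers (2025 to 2848 against 1123 to 1636). Of 5 epithelial markers 3 were lower (6829 to 14650 against 15950 to 28940). With the mean of the T cell markers as a covariate 0 of the 10 genes passed in combination against untreated tumors, with 2286 of all genes still called. There the log2 fold changes were 1.03 for Il12rb2 (adjusted p = 0.109), 0.64 for Il18r1, 0.38 for Il12rb1, 0.29 for Ebi3, 0.28 for Il27 and 0.10 for Il18bp (adjusted p = 0.755, limma). With Ptprc as a covariate 0 of the 10 passed, with 3 of all genes called. With Ptprc the fold change of Il18r1 was 1.02 on the log2 scale (adjusted p = 0.121, limma), and those of the other 5 genes called without it lay between -0.006568 (Il27) and 0.26 (Il12rb2).

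**Figure D2:**
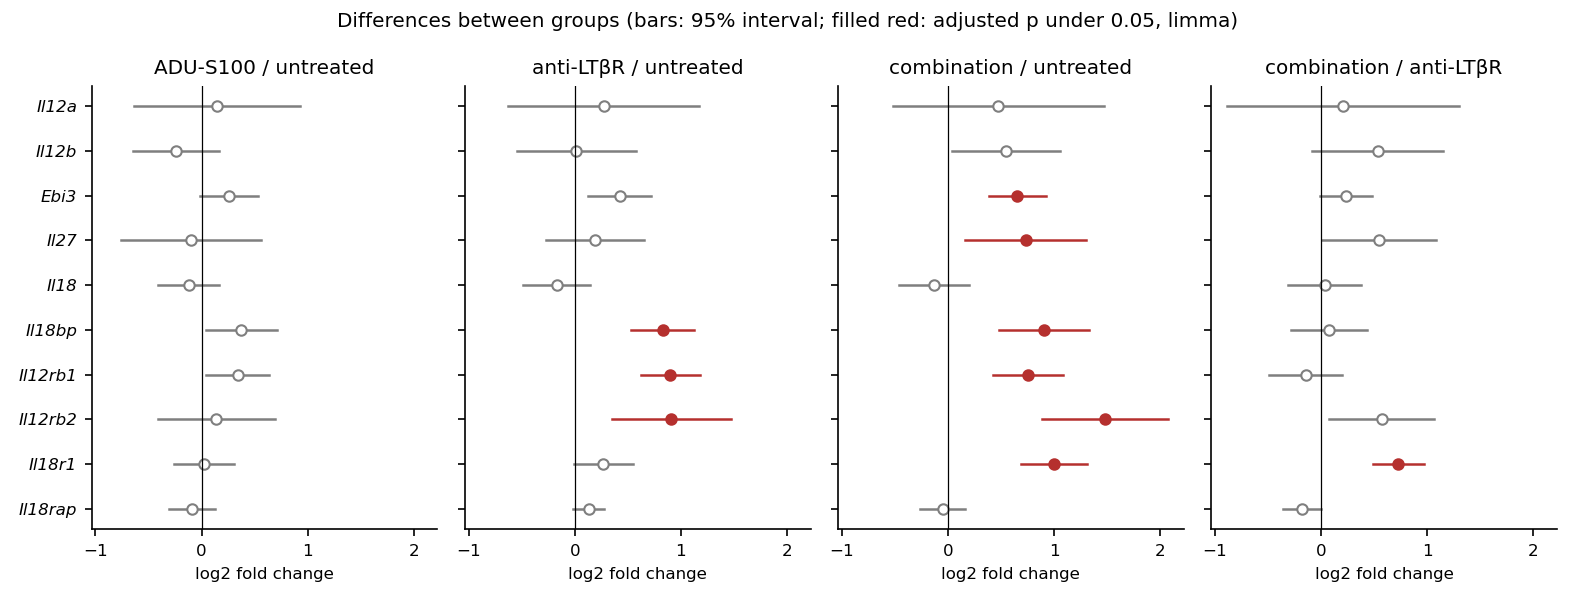
Log2 fold changes (horizontal axis, log2 of normalized count + 1) of the 10 genes in 4 comparisons, with 95% intervals, where filled red points have an adjusted p under 0.05 in limma's test. Against untreated tumors 0 genes passed for ADU-S100, 3 for anti-LTβR and 6 for the combination, and 1 gene, Il18r1, passed for the combination against anti-LTβR.

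Among the ligand chains, Ebi3 showed the clearest difference. Ebi3 (ENSMUSG00000003206) lies on the plus strand of chromosome 17 from 55952640 to 55957022 in GRCm38. Its median was 84.8 normalized counts without treatment (lowest 76.5, highest 144.5), 107 after ADU-S100 (88.3 to 129), 120.1 after anti-LTβR (87.7 to 169) and 149.6 after both agents (114 to 174). Combination tumors lay above 7 of 8 untreated tumors, and untreated tumor 2, at 144.5, stood inside the combination range. The log2 fold change was 0.66 ± 0.13 (SE) for combination against untreated tumors (adjusted p = 0.000696, limma) and 0.40 ± 0.10 against ADU-S100 tumors (adjusted p = 0.00444). For anti-LTβR against untreated tumors it was 0.42 with an adjusted p of 0.0506 in limma's test, and without untreated tumor 2 or without anti-LTβR tumor 8 the adjusted p was 0.0114 or 0.0271. Beside the covariate fits, Ebi3 passed there in 3 of 9 other settings, with DESeq2 (adjusted p = 0.0384), with a minimum of 10 in every library (0.0452, limma) and with all 4 groups in 1 fit (0.01746, limma).

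Il27 (ENSMUSG00000044701), the other chain of IL-27, lies on the minus strand of chromosome 7 from 126589010 to 126594941. It was measured with few reads, at a median of 16.4 normalized counts without treatment (lowest 8.02, highest 23.9), 16.1 after ADU-S100 (4.93 to 32.7), 17.9 after anti-LTβR (12.2 to 27.0) and 30.0 after both agents (11.4 to 42.7). In 6 of 8 combination tumors it was above every untreated tumor, and combination tumors 1 and 8 (15.38 and 11.37) lay within the untreated range. The log2 fold change against untreated tumors was 0.73 ± 0.27 (SE, adjusted p = 0.0365, limma). That call was lost in 10 of 16 fits that left out 1 tumor, namely untreated tumors 1, 4, 6 or 8 or combination tumors 2 to 7, with adjusted p-values up to 0.0756 in limma's test, and it was lost with no filter on low counts (adjusted p = 0.0556).

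The IL-12 chains were also measured with few reads. Il12b (ENSMUSG00000004296, chromosome 11, plus strand, 44400063 to 44414033) encodes the p40 chain that IL-12 shares with IL-23. Its median stood at 20.7 normalized counts without treatment (lowest 11.02, highest 24.6), 17.3 after ADU-S100 (9.88 to 19.0), 20.8 after anti-LTβR (10.9 to 35.5) and 24.9 after both agents (17.1 to 49.2). Combination tumors divided into 4 above every untreated tumor (27.7 to 49.2) and 4 within that range. Against untreated tumors the log2 fold change was 0.55 (95% interval 0.04 to 1.06, adjusted p = 0.0774, limma), and without combination tumor 8 the adjusted p was 0.0404. Against ADU-S100 tumors, where 7 of 8 combination tumors lay above the highest value, it was 0.79 ± 0.22 (SE, adjusted p = 0.00781, limma).

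Il12a (ENSMUSG00000027776, chromosome 3, plus strand, 68690644 to 68698547), the p35 chain, failed the filter on low counts and was the only one of the 10 to do so. It was tested in the same fit without the filter. Its mean was 5.11 ± 2.66 (SD, n = 8) without treatment, 5.76 ± 3.06 after ADU-S100, 6.98 ± 4.36 after anti-LTβR and 8.99 ± 7.07 after both, and single tumors ran from 0.921 to 20.8. The groups overlapped throughout, and a difference could not be detected at this depth (log2 fold change 0.48, 95% interval -0.52 to 1.47, adjusted p = 0.505 in limma's test for combination against untreated tumors).

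Il18 (ENSMUSG00000039217, chromosome 9, plus strand, 50554827 to 50581840) did not pass in any comparison. The median of Il18 was 101.1 normalized counts without treatment (lowest 74.0, highest 139.6), 88.2 after ADU-S100 (74.3 to 116), 87.3 after anti-LTβR (68.1 to 139) and 93.5 after both agents (70.2 to 123). The 4 ranges covered nearly the same values. The log2 fold change for combination against untreated tumors was -0.13 (95% interval -0.46 to 0.20, adjusted p = 0.508, limma).

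Il18bp (ENSMUSG00000070427, chromosome 7, minus strand, 102014885 to 102018690) rose where Il18 did not. The median of Il18bp was 732.5 normalized counts without treatment (lowest 574, highest 1224), 1037 after ADU-S100 (676 to 1369), 1408 after anti-LTβR (1092 to 1634) and 1671 after both agents (840.2 to 2143). In anti-LTβR tumors 7 of 8 lay above every untreated tumor. Combination tumors were more spread, with 5 above every untreated tumor and tumors 1, 4 and 8 (1191, 1033 and 840) inside the untreated range. By limma it changed by 0.83 ± 0.14 (SE, adjusted p = 0.00232) for anti-LTβR and 0.90 ± 0.20 (adjusted p = 0.00185) for the combination against untreated tumors. Between combination and anti-LTβR tumors it was 0.07 (95% interval -0.29 to 0.43).

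The ratio of both genes within each tumor was compared as the log2 of Il18 over Il18bp, which any scaling of a library leaves unchanged apart from the pseudocount of 1. Without treatment it was -2.95 ± 0.43, after ADU-S100 -3.45 ± 0.52, after anti-LTβR -3.95 ± 0.40 and after both agents -3.99 ± 0.76 (mean ± SD, n = 8). The arithmetic means of Il18bp counts for each count of Il18, which weigh high ratios more than the log2 means do, were 8.09, 11.6, 16.1 and 17.9 in the same order. Anti-LTβR tumors were lower than untreated tumors by a difference of -1.0 (two-sided exact permutation test over 12870 splits, p = 0.000622, adjusted over 6 comparisons 0.00373), with 7 of 8 below every untreated tumor. Combination tumors differed from untreated tumors by -1.04 (exact permutation p = 0.00668, adjusted 0.0201), with 5 of 8 below every untreated tumor. For ADU-S100 against untreated tumors the difference of -0.50 did not pass (exact permutation p = 0.0575, adjusted 0.0863), nor did that of -0.04 between combination and anti-LTβR tumors (exact permutation p = 0.897, adjusted 0.897).

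**Figure D3:**
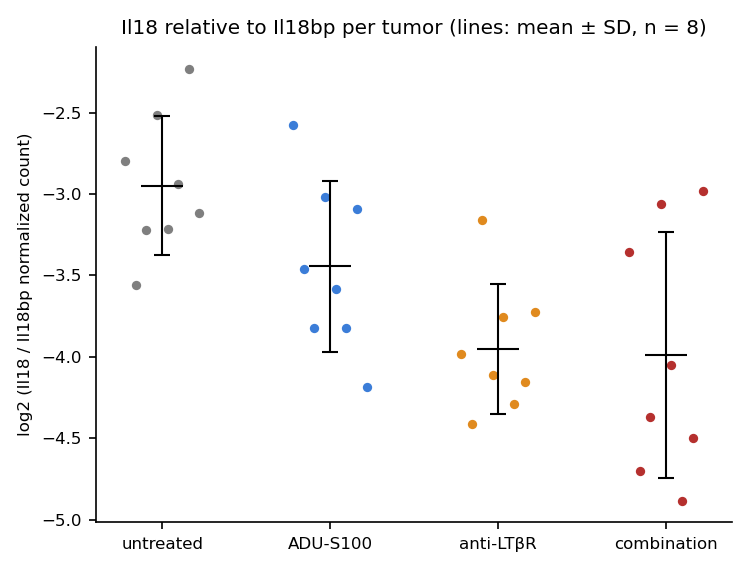
Log2 ratio of Il18 to Il18bp normalized counts (vertical axis) in the tumors of the 4 groups (horizontal axis), with means and SD over 8 tumors. Untreated tumors lie between -3.56 and -2.23, and 7 of 8 anti-LTβR tumors lie below all of them.

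Both chains of the IL-12 receptor were higher with the antibody. Il12rb1 (ENSMUSG00000000791, chromosome 8, plus strand, 70808449 to 70821424) also serves in the IL-23 receptor. Its median was 385 normalized counts without treatment (lowest 271, highest 494), 488 after ADU-S100 (318 to 639.6), 698 after anti-LTβR (489 to 955) and 671 after both agents (429.6 to 1036). Among anti-LTβR tumors 7 of 8 were above every untreated tumor, and among combination tumors 6 of 8, with combination tumors 4 and 8 (458 and 430) inside the untreated range. On the log2 scale the fold change was 0.90 ± 0.13 (SE, adjusted p = 0.000925) for anti-LTβR and 0.76 ± 0.16 (adjusted p = 0.00109) for the combination against untreated tumors by limma.

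Il12rb2 (ENSMUSG00000018341, chromosome 6, minus strand, 67291318 to 67376188) is the chain that binds STAT4 and marks TH1 cells and natural killer cells. The median of Il12rb2 was 21.9 normalized counts without treatment (lowest 9.07, highest 45.6), 23.3 after ADU-S100 (16.9 to 39.8), 44.7 after anti-LTβR (26.2 to 61.8) and 74.0 after both agents (35.1 to 100.3). The 2 lowest combination tumors, 4 and 8, reached 35.1 and 38.0, below untreated tumor 5 at 45.6, and the other 6 exceeded every untreated tumor. The log2 fold change against untreated tumors was 1.48 ± 0.28 (SE, adjusted p = 0.000566) for the combination and 0.91 ± 0.27 (adjusted p = 0.0311) for anti-LTβR by limma. The second call was lost without untreated tumor 1 or without anti-LTβR tumor 1, 2, 3, 6 or 7, with limma adjusted p-values of 0.05004 to 0.0610. Combination tumors exceeded anti-LTβR tumors by 0.57 (95% interval 0.08 to 1.07, adjusted p = 0.0804, limma), and it passed without combination tumor 4 (adjusted p = 0.0299) or 8 (adjusted p = 0.0371).

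Exons of Il12rb2 share 1519 bases, 40.0% of its exon length, with Serbp1 on the opposite strand, and Serbp1 averaged 5802 normalized counts. Whether strand was used in counting is not given in the sources used here, so reads of one gene could be counted for the other. Serbp1 moved the other way, with a log2 fold change of -0.50 (adjusted p = 0.000196, limma) for combination against untreated tumors. Smaller shares of exon length overlap opposite genes for Ebi3 (23.4%, with Gm16712), Il27 (10.1%, with Apobr) and Il18bp (2.6%, with Numa1). Gm16712 rose with Ebi3 in combination against untreated tumors (0.68, adjusted p = 0.00254) and Apobr with Il27 (0.39, adjusted p = 0.000773) in limma's test, and the part of either in these results was not tested.

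Il18r1 was the only one of the 10 genes whose combination tumors all lay above all untreated tumors, which 4.64% of genes tested did. Il18r1 (ENSMUSG00000026070, chromosome 1, plus strand, 40465552 to 40500854) encodes the chain that binds IL-18. In combination tumors 1 to 8 it was 169, 153, 233, 145, 209, 207, 141 and 154 normalized counts. Untreated tumors ran from 68.9 to 121 (median 81.8), ADU-S100 tumors from 76.6 to 108 (median 83.4) and anti-LTβR tumors from 96.5 to 136 (median 98.8). The lowest combination tumor, at 141, was thus above the highest of the other 24 tumors, anti-LTβR tumor 1 at 136.

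The log2 fold change of Il18r1 was 1.00 ± 0.15 (SE, adjusted p = 8.7e-05) for combination against untreated tumors, 0.73 ± 0.11 (adjusted p = 0.000794) against anti-LTβR tumors and 0.98 ± 0.12 (adjusted p = 1.56e-05) against ADU-S100 tumors by limma. Against anti-LTβR tumors it was the 1 gene of the 10 that rose, while 11.3% of 16932 genes rose and 15.3% fell (26.6% in all). At 2-fold or more 0 of the 10 passed, against 1.96% upward and 0.148% downward. All 8 combination tumors lay above all anti-LTβR tumors, which 1.45% of genes did. Neither agent alone passed, with 0.27 (95% interval -0.0046 to 0.54, adjusted p = 0.155) for anti-LTβR and 0.02 (95% interval -0.26 to 0.30, adjusted p = 0.950) for ADU-S100 by limma. The effect of ADU-S100 in the presence of the antibody differed from that in its absence by 0.71 ± 0.17 (SE) on the log2 scale (adjusted p = 0.00557, limma's interaction term over all 32 tumors). This interaction passed for 1 of the 10 genes, against 7.33% of 17649 genes in the positive and 11.0% in the negative direction. At 2-fold or more these shares were 2.71% and 0.351%, with 0 of the 10 genes. Unadjusted p-values under 0.05 were also found for Il12b (0.78, adjusted p = 0.120) and, with the opposite sign, for Il12rb1 (-0.49, adjusted p = 0.126) in the same limma fit.

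With the T cell markers as a covariate the difference of Il18r1 between combination and anti-LTβR tumors was 0.66 (adjusted p = 0.0089) and the interaction 0.64 (adjusted p = 0.0107), while that of combination against untreated tumors was 0.64 (adjusted p = 0.0518) in limma's test. Fibroblast and endothelial markers also stood apart in combination tumors, with 5 of 5 and 4 of 4 higher against anti-LTβR tumors. Cd4 was higher by 0.72 (adjusted p = 0.00189, limma), and in 7 of 8 combination tumors it exceeded the highest anti-LTβR value. Ccr7, the 1 of 4 mature dendritic markers that passed and named here for that, was higher by 0.64 (adjusted p = 0.00707, limma). Also higher were 1 of 5 T cell, 2 of 7 macrophage and 1 of 5 neutrophil markers, while 3 of 5 epithelial, 1 of 3 plasma cell and 1 of 4 type 1 conventional dendritic markers were lower. The part of these markers in the result was not tested beyond the T cell and Ptprc covariates. Against untreated tumors the antibody alone had 0 of 5 fibroblast and 2 of 4 endothelial markers higher.

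**Figure D4:**
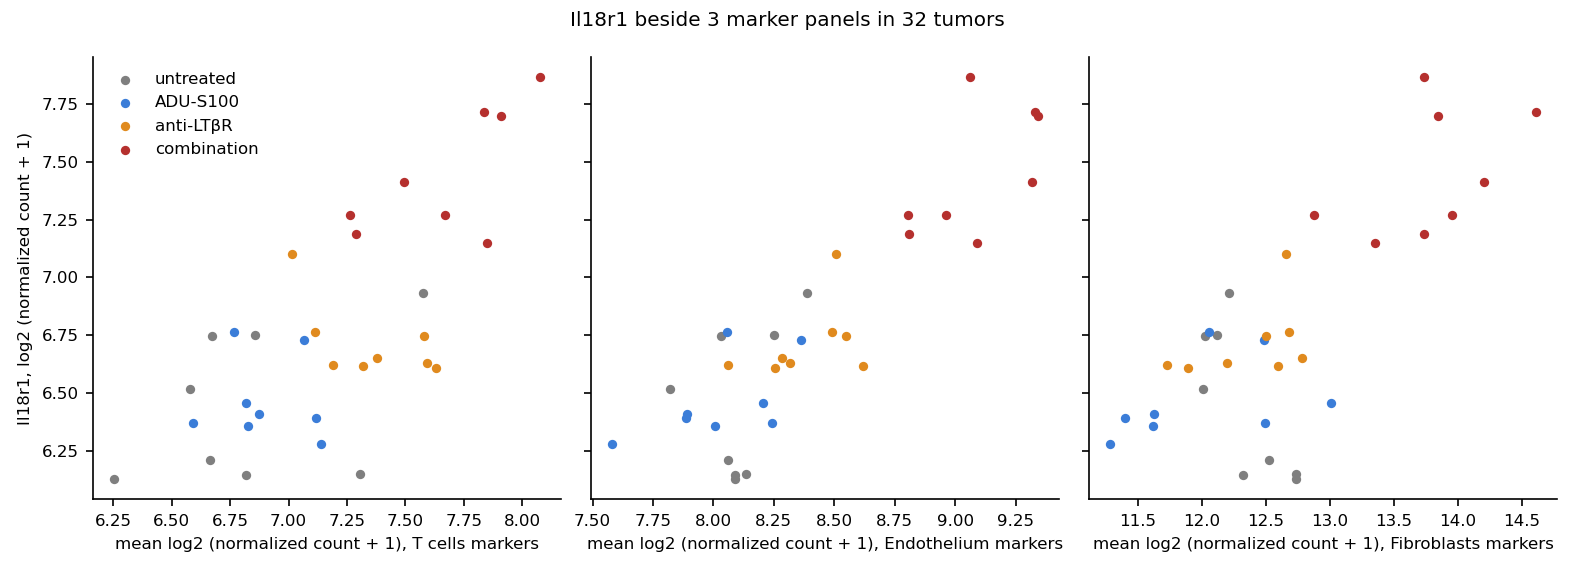
Il18r1 (vertical axis, log2 of normalized count + 1) against the mean log2 level of T cell, endothelial and fibroblast markers (horizontal axes) in 32 tumors, colored by group. On the T cell axis combination tumors (7.26 to 8.08) overlap anti-LTβR tumors (7.01 to 7.63), and on the endothelial and fibroblast axes they lie to the right of all other groups except that ADU-S100 tumor 6 reaches 13.0 in fibroblast markers beside the lowest combination tumor at 12.9.

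Il18rap (ENSMUSG00000026068), the accessory chain that IL-18 signaling requires, lies next to Il18r1 on chromosome 1 (plus strand, 40515362 to 40551705). Its median was 786 normalized counts without treatment (lowest 600.4, highest 901), 735 after ADU-S100 (584 to 1011), 867 after anti-LTβR (797.5 to 915) and 749.6 after both agents (633 to 958). These ranges overlapped in every pair of groups. It did not pass in any comparison, and the log2 fold change for combination against untreated tumors was -0.05 (95% interval -0.26 to 0.16, adjusted p = 0.721, limma).

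In anti-LTβR against untreated tumors 3 of the 10 genes (Il12rb1, Il12rb2 and Il18bp) were higher and 0 lower, while 7.21% of 16691 genes were higher and 8.10% lower. Of the 10 genes 0 changed by 2-fold or more, against 0.653% of all genes upward and 0.383% downward, and 0 had all 8 antibody-treated tumors above all untreated ones, as 0.809% of genes did. Ptprc and 2 of 5 T cell markers were higher in the same comparison (summed T cell levels 657 to 1058 against 397 to 992). So were 2 of 7 macrophage, 2 of 4 type 1 conventional dendritic, 2 of 4 endothelial, 1 of 2 CD8 T cell, 1 of 5 B cell and 1 of 3 plasma cell markers, and 3 of 5 epithelial markers were lower. With the T cell markers as a covariate Il12rb1 (0.84, adjusted p = 0.0182) and Il18bp (0.49, adjusted p = 0.0374) still passed limma's test. Il12rb2 did not pass in that fit (0.99, adjusted p = 0.0847, limma). With Ptprc as a covariate 0 of the 10 passed, with 10 of all genes called. There the log2 fold changes were 0.80 for Il18bp (adjusted p = 0.205), 0.68 for Il12rb1 (adjusted p = 0.2195) and 0.22 for Il12rb2 (adjusted p = 0.884) by limma.

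Between ADU-S100 and untreated tumors 0 of the 10 genes and 0 of 16613 genes passed limma's test (0%), with an unadjusted p under 0.05 for 2 of the 10 (Il12rb1 and Il18bp) and for 2408 of all genes. Of all genes edgeR called 1 and DESeq2 57, and of the 10 genes both called 0, although DESeq2 gave no adjusted p for 7 of them. None of the 10 was free of overlap between these groups, and 0.0301% of genes lay wholly higher after ADU-S100. Il12rb1 was 0.34 (95% interval 0.05 to 0.63, adjusted p = 0.311) and Il18bp 0.37 (95% interval 0.04 to 0.71, adjusted p = 0.318) above untreated tumors on the log2 scale.

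In combination against ADU-S100 tumors 5 of the 10 genes were higher (Il12rb2, Il18r1, Il12b, Il18bp and Ebi3) and 0 lower, while 20.2% of 16811 genes were higher and 26.0% lower (46.2% in all). At 2-fold or more 1 of the 10 passed (Il12rb2), against 5.46% upward and 0.714% downward, and Il18r1 alone lay above every ADU-S100 tumor in all 8, as 5.00% of genes did. All 5 T cell markers, all 7 macrophage markers, 3 of 4 natural killer cell markers and Ptprc were higher as well. The same held for 4 of 4 mature dendritic, 3 of 3 type 2 and 1 of 4 type 1 conventional dendritic (1 lower), 4 of 5 B cell, 2 of 3 plasma cell (1 lower), 1 of 2 CD8 T cell, 1 of 5 neutrophil, 5 of 5 fibroblast and 4 of 4 endothelial markers and Cd4, and 3 of 5 epithelial markers were lower. With the T cell markers as a covariate 0 of the 10 passed, with log2 fold changes of 0.64 for Il18r1 (adjusted p = 0.0532), 0.52 for Il12rb2, 0.11 for Ebi3, -0.11 for Il12b and -0.48 for Il18bp by limma. With Ptprc as a covariate 2 passed, Il18r1 upward (0.82, adjusted p = 0.00953) and Il18 upward (0.57, adjusted p = 0.0145, limma). Without covariates Il12rb2 changed most, by 1.34 ± 0.23 (SE, adjusted p = 0.000178, limma). The call of Il18bp (0.53, adjusted p = 0.0264) was lost without ADU-S100 tumor 1 or combination tumor 2, 5 or 6, with limma adjusted p-values of 0.0501 to 0.0545. Il12rb1 (0.42, adjusted p = 0.0524) and Il27 (0.83, adjusted p = 0.0522) lay just above the threshold. Beside the covariate fits, Il12rb1 passed in 5 of 9 other settings (edgeR adjusted p = 0.0368, DESeq2 0.0190) and Il27 in 2 of 8 (DESeq2 adjusted p = 0.0378). In anti-LTβR against ADU-S100 tumors 3 were higher (Il12rb1, Il12rb2 and Il18bp, adjusted p from 0.0299 to 0.0373 in limma's test) and 0 lower, while 3.38% of 16649 genes were higher and 3.04% lower. At 2-fold or more 0 passed, against 0.559% upward and 0.0420% downward, and 0 were free of overlap, against 0.372%. Each of these 3 calls was lost in 6 to 11 of 16 fits that left out 1 tumor. Higher as well were 5 of 7 macrophage, 2 of 5 T cell, 2 of 3 plasma cell, 1 of 4 natural killer cell and 1 of 5 B cell markers and Cd4. So were 1 of 4 mature, 1 of 4 type 1 and 1 of 3 type 2 conventional dendritic and 1 of 4 endothelial markers. With the T cell markers or Ptprc as a covariate 0 of the 10 passed. With the T cell markers the log2 fold changes were 0.99 for Il12rb2, 0.58 for Il12rb1 and 0.16 for Il18bp.

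The lists of genes that work with the axis are read beside the shares of all genes called, 19.6% higher and 23.6% lower for the combination and 7.21% and 8.10% for the antibody alone against untreated tumors. In the inflammasome list that matures IL-18, all 8 genes were higher in combination than in untreated tumors and 0 were lower, with a median log2 fold change of 0.51 beside -0.02 over all genes. Aim2, a DNA sensor, went from 103 to 171 mean normalized counts (0.73, adjusted p = 4.14e-05), with no overlap between groups. Nlrp1b went from 106 to 204 (0.98, adjusted p = 0.000305), also without overlap, Nlrc4 from 44.99 to 82.0 (0.86, adjusted p = 0.000507), and Gsdmd, the pore former that releases the cytokine, from 902 to 1121 (0.31, adjusted p = 0.00262), all by limma. Casp1, which encodes the caspase that cuts IL-18, changed least of the 8, from 398.5 to 469.3 (0.23, adjusted p = 0.0456, limma). Pycard changed by 0.30 (adjusted p = 0.0196, limma). The lists were not fitted with the T cell or Ptprc covariates, and the cutting of IL-18 itself was not measured. With the antibody alone 3 of 8 passed (Aim2, Nlrp1b and Casp4), with a median of 0.25.

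The TH1 list held 5 of 9 genes that were higher and 0 that were lower in combination against untreated tumors. Cxcr3, a chemokine receptor of TH1 cells, was above every untreated tumor in 8 of 8 tumors (88.3 against 36.6, log2 fold change 1.26, adjusted p = 5.45e-05), and Tbx21, the TH1 master regulator, rose from 47.9 to 98.5 (1.00, adjusted p = 0.000421). Ifng rose from 40.9 to 107 (1.34, adjusted p = 0.00174) and Ifngr2 from 923 to 1088 (0.24, adjusted p = 0.0115), both by limma. The antibody alone raised 2 of 9, Ifng (1.06, adjusted p = 0.00665) and Tbx21 (0.61, adjusted p = 0.0174, limma).

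Of 10 genes that respond to IFN-γ, 9 were higher and 0 lower in combination tumors, and the same count of 9 was higher with the antibody alone. Ido1 was the exception in both, at 23.4 normalized counts in untreated, 28.9 in anti-LTβR and 20.7 in combination tumors. Nos2, inducible nitric oxide synthase, had the smallest adjusted p of the list (1083 untreated, 2717 anti-LTβR, 4075 combination) with log2 fold changes of 1.35 (adjusted p = 8.88e-05) and 1.896 (adjusted p = 6.64e-06) in limma's test. Cxcl9 (0.91, adjusted p = 0.000615), Cd274, which encodes PD-L1 (0.76, adjusted p = 0.00136), and Socs1, a feedback inhibitor of JAK signaling (0.69, adjusted p = 0.00144), came next by adjusted p in combination tumors by limma. Cxcl11, named after its values were seen, changed more than these, by 1.48 after both agents (adjusted p = 0.00783) and 1.45 after the antibody (adjusted p = 0.0104, limma). In ADU-S100 tumors 0 of 10 passed.

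Of 6 kinases and STAT proteins that carry IL-12 and IL-27 signals 3 were higher and 0 lower in combination against untreated tumors. Among them were Stat4 (56.8 to 86.1 normalized counts, 0.58, adjusted p = 0.00105) and Tyk2 (0.18, adjusted p = 0.0386) by limma. Among 6 partner chains and receptors 2 were higher and 0 lower, Il27ra, the receptor of IL-27 (60.1 to 116, 0.97, adjusted p = 0.000521), and Il23r (1.09 to 5.80, adjusted p = 0.00097, limma), the latter at few reads per tumor.

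Downstream of the IL-18 receptor 2 of 9 genes were higher and 2 lower in combination tumors, near the shares of all genes called. Irak3, an inhibitor of this pathway, rose from 124 to 208 without overlap (0.75, adjusted p = 0.000591) and Irak2 from 692 to 837 (0.27, adjusted p = 0.00363) by limma. Nfkb1 (-0.18, adjusted p = 0.0109) and Rela (-0.14, adjusted p = 0.0281), subunits of NF-κB, fell in the same test.

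Of 6 transcription factors of cells that make IL-12 and IL-27, 5 were higher and 0 lower in combination tumors. Irf8 (0.64, adjusted p = 0.000411), Spi1 (0.46, adjusted p = 0.00109), Irf5 (0.45, adjusted p = 0.00162) and Rel (0.37, adjusted p = 0.00241) were led by Irf8, which went from 1005 to 1585 normalized counts by limma. With the antibody alone Irf8 rose (0.50, adjusted p = 0.00113) and Irf3 fell (-0.25, adjusted p = 0.0306, limma). In the list of the type 17 axis 3 of 6 genes measured were higher in combination tumors and 0 lower, among them Il23r and Ccr6 (3.43 to 11.6 normalized counts, adjusted p = 0.0041, limma).

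Within the IL-1 family, to which IL-18 belongs, 4 of 12 genes were higher and 0 lower in combination tumors. They were Il1r1 (0.49, adjusted p = 0.000498), Il33 (0.76, adjusted p = 0.00605), Il1a (0.67, adjusted p = 0.021) and Il1rn (0.41, adjusted p = 0.0363) by limma. With the antibody alone Il1rl1, the IL-33 receptor, fell from 111 to 62.6 (-0.82, adjusted p = 0.00522, limma).

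**Figure D5:**
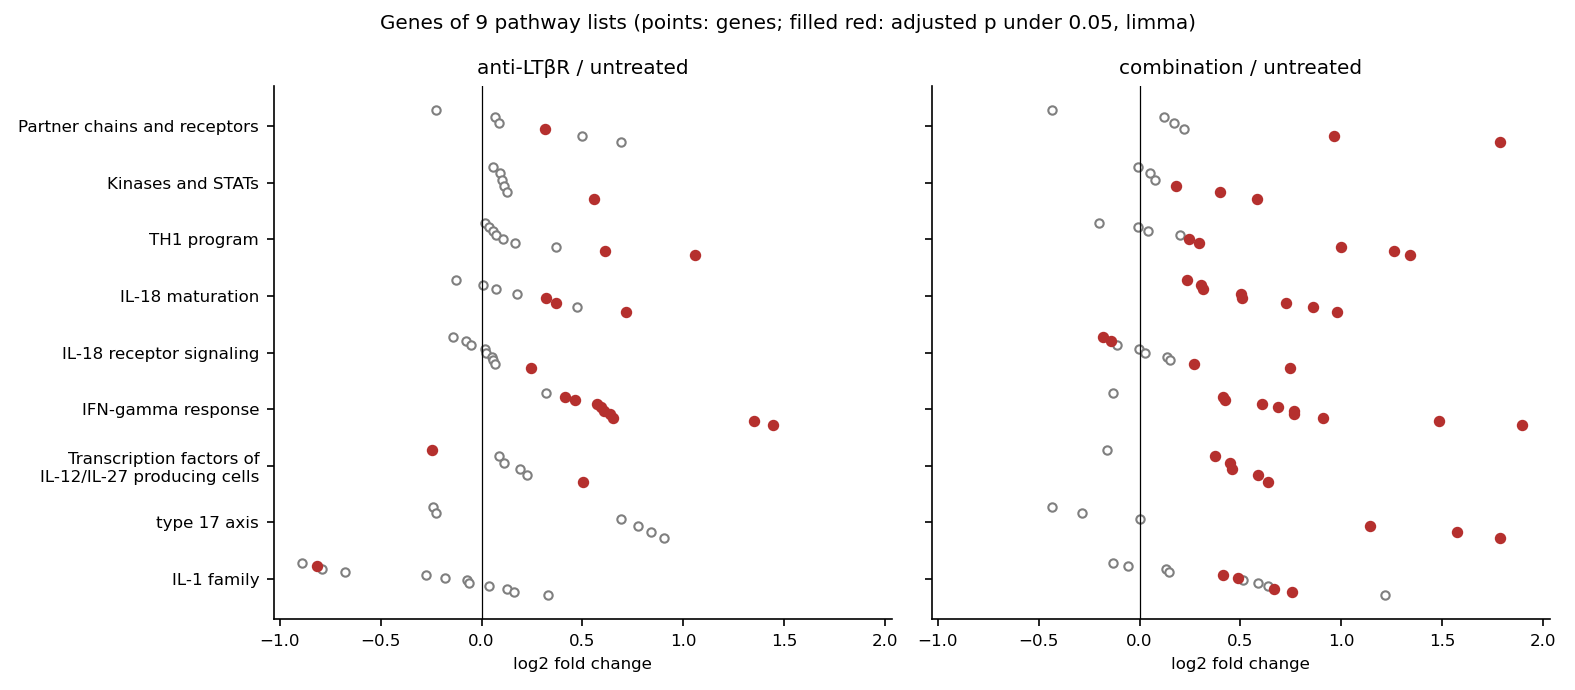
Log2 fold changes (horizontal axis) of the genes of 9 pathway lists (vertical axis) for anti-LTβR and combination against untreated tumors, where filled red points have an adjusted p under 0.05 in limma's test. In combination tumors 8 of 8 IL-18 maturation genes and 9 of 10 IFN-γ response genes are filled and lie to the right of 0.

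Tumor to tumor, after removing group means, the chains of 6 pairs were compared over the 32 tumors. Il12rb1 and Il12rb2 varied together (Pearson r = 0.485, permutation p = 0.0062, adjusted over the 6 pairs 0.0372, Spearman rho = 0.400, permutation p = 0.0302), and r was 0.529 without the 2 tumors farthest from the median of Il12rb1. The pairs Il27 and Ebi3 (r = 0.287, rho = 0.303, permutation p = 0.102 and 0.108), Il12a and Il12b (r = 0.266, rho = 0.273, permutation p = 0.196 and 0.178), and Il18r1 and Il18rap (r = 0.267, rho = 0.256, permutation p = 0.174 and 0.192) did not pass, each with an adjusted p of 0.196. Il18 and Il18bp gave r = -0.342 (permutation p = 0.0776, adjusted 0.196, rho = -0.317, permutation p = 0.109). Il12a and Ebi3 gave r = 0.243 and rho = 0.260 (permutation p = 0.187 and 0.166, adjusted 0.196).

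The same deviations were set beside the marker panels and beside 16963 genes with a mean of at least 10 normalized counts, as a description without a test, since tumors share cell makeup. Among 18 panels Il18bp followed T cell markers most closely (r = 0.744) and macrophage markers next (0.732). Skeletal muscle (0.667) and CD8 T cell markers (0.666) came after these, and Il18bp ran against epithelial markers (-0.767). Il18 followed keratinocyte markers (0.652) and epithelial markers (0.627) and ran against Ptprc (-0.690). Il12a followed skeletal muscle markers (0.787), whose summed level ran from 4211 to 264800 normalized counts across tumors. The median of that sum was 6553 without treatment, 62810 after ADU-S100, 81420 after anti-LTβR and 75010 after both agents. The group ranges overlapped, and 0 of 3 muscle markers passed in any comparison of groups. Untreated tumors 2, 3 and 5, highest of their group in muscle markers, were also its highest in Il18bp (1224, 1015 and 930). The part of muscle in the differences between groups was not tested. Ebi3 (0.638) and Il12rb2 (0.614) followed Ptprc, Il12b (0.485) and Il12rb1 (0.547) macrophage markers, Il27 (0.446) markers of type 1 conventional dendritic cells, and Il18r1 (0.614) markers of mature dendritic cells. Il18rap was followed closely by no panel (highest r = 0.413, epithelial markers).

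The genes most like each member over the 32 tumors were AW112010 (r = 0.901) and Cst7 (0.874) for Il18bp, H2-Q7 (0.837) and Apol10b (0.821) for Il12rb1, and Ulbp1 (0.732) and Parp1 (0.696) for Il12rb2. For Il18r1 they were Evl (0.677) and Nagpa (0.669), and for Il18rap Arhgap11a (0.839) and Tacc3 (0.831). Cygb (0.819) and Tnfsf13b (0.793) were most like Ebi3, Wdr66 (0.790) and Inpp5j (0.717) most like Il27, Zfp456 (0.750) and Aif1 (0.651) most like Il12b, and Hebp2 (0.804) and Atp1b3 (0.794) most like Il18.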

How the data were processed

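Individual tumors were sequenced from poly(A) stranded libraries. The submitters' processing notes and methods name cutadapt 1.9, HISAT2, StringTie, STAR, Partek, DESeq2, edgeR and mm39, and which of them made each table is not given in the sources used here. The authors deposited 2 gene tables of normalized counts (signal: read counts divided by a size factor per library). Whole reads were recovered from the larger table, of 27894 genes and 52 libraries, where 99.8% to 99.98% of values were whole within 0.05 reads.

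Each comparison was fitted on its own 16 tumors, and the interaction on all 32, with limma 3.58.1 (R 4.3.3, trend) on log2(normalized count + 1) after a low-count filter (filterByExpr of edgeR, minimum 10). Calls needed an adjusted p under 0.05, and 2-fold was counted besides. Genes failing the filter were tested in the same fit without it. Alternatives were edgeR 4.0.16 and DESeq2 1.42.0 on recovered reads, other filters and pseudocounts of 0.1 and 0.5, all 4 groups in 1 fit, a replicate block, covariates, and leaving out each tumor. Scripts were tested on simulated data.

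The 10 genes, the gene lists and the marker panels were chosen with earlier results of these data known. Named were all 10 genes and, of each list, up to 4 genes with the smallest adjusted p in combination against untreated tumors and every gene that fell. Ifng and the other genes given for the antibody alone, Casp4, Ido1 and Cxcl11 among them, were added after their values were seen. So were Casp1 and Pycard. Gene positions are from GENCODE on GRCm38. The deposited coordinates are of another build, since 572 of 26500 shared identifiers start at the same base, and were not used. Libraries of the second experiment entered no comparison. Another deposited table holds the authors' own gene set enrichment scores and p-values between groups and was not used here. Some listed genes are counted but not reported here by name.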

Additional observations from a re-analysis of the deposited data

Results flagged for a closer look

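In 4 of 44 groups of 8 tumors checked, the highest tumor stood far from the other 7, where chance flags about 1 in 20 groups. These were Ebi3 in untreated tumor 2 (144.5 normalized counts), Il18 in anti-LTβR tumor 3 (138.6), Il12rb1 in combination tumor 2 (1036) and Il18r1 in anti-LTβR tumor 1 (136.2).

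The effect of ADU-S100 on Il18r1 differed with and without anti-LTβR by 0.71 on the log2 scale (adjusted p = 0.00557, limma's interaction term).

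A second experiment in the larger table, of 20 libraries, held 5 labelled as combination, and 15 whose labels contradict each other and were left out of every comparison. Its highest labelled library exceeded the highest untreated library of the main experiment for all 10 genes, but for 8 without the third labelled library, the shallowest at 8716257 reads. Without it the highest Il27 was 1.66 CPM (highest untreated 1.69), the highest Il12rb1 27.9 (34.0) and the highest Ebi3 9.95 (9.68). Of the 5 labelled libraries 4 lay above the highest untreated one for Il12b, Il18 and Il18r1, 3 for Il18bp, 2 for Ebi3, and 1 for each of Il12a, Il27, Il12rb1, Il12rb2 and Il18rap. The experiment and the group cannot be told apart there. The highest values, in CPM of recovered reads, were 0.605 for Il12a, 5.00 for Il12b, 42.3 for Ebi3, 11.2 for Il27 and 18.8 for Il18. They were 133.0 for Il18bp, 43.4 for Il12rb1, 4.23 for Il12rb2, 18.03 for Il18r1 and 61.5 for Il18rap. The third of the 5 libraries was highest in Ebi3, Il27, Il18bp and Il12rb1 and lowest in Il12b, Il18, Il12rb2 (0), Il18r1 (2.52) and Il18rap (23.6).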

How the results depend on the processing

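Fold changes are on the log2 scale, and the number of the 10 genes called is compared with the reported fit. For combination against untreated tumors 0 passed with the T cell markers and 0 with Ptprc as a covariate, and 1 with a 2-fold change required. For anti-LTβR against untreated tumors it was 0 with Ptprc and 0 at 2-fold, and for combination against anti-LTβR tumors 2 with DESeq2, 2 with the replicate block, 0 at 2-fold and 1 to 3 when 1 tumor was left out. For combination against ADU-S100 tumors it was 0 with the T cell markers, 2 with Ptprc and 1 at 2-fold. For anti-LTβR against ADU-S100 tumors it was 1 with the replicate block, 0 with the T cell markers, 0 with Ptprc, 1 with all 4 groups in 1 fit, 0 at 2-fold and 0 to 4 when 1 tumor was left out. The interaction gave 0 at 2-fold and 2 with the T cell markers. Those 2 were of opposite sign, Il18r1 (0.64, adjusted p = 0.0107) and Il18bp (-0.53, adjusted p = 0.0263, limma). The causes were not tested. With the T cell markers as a covariate, the sign turned for combination against untreated in Il12a (-0.70), Il12b (-0.01029), Il18 (0.12) and Il18rap (0.01778), anti-LTβR against untreated in Il12a (-0.43), combination against anti-LTβR in Il12a (-0.31) and Il18bp (-0.26), combination against ADU-S100 in Il12a (-0.80), Il12b (-0.11), Il27 (-0.37), Il18 (0.49), Il18bp (-0.48) and Il12rb1 (-0.12), anti-LTβR against ADU-S100 in Il12a (-0.49) and the interaction in Il12a (-0.31). With Ptprc as a covariate, the sign turned for combination against untreated in Il12a (-1.34), Il12b (-0.086), Il27 (-0.006568), Il18 (0.55) and Il18rap (0.12), anti-LTβR against untreated in Il12a (-0.17), Il12b (-0.48), Il27 (-0.051) and Il18 (0.13), ADU-S100 against untreated in Il12a (-0.078), Il18 (0.0056) and Il12rb2 (-0.069), combination against anti-LTβR in Il12a (-0.13) and Il18bp (-0.13), combination against ADU-S100 in Il12a (-0.53), Il18 (0.57) and Il18bp (-0.084), anti-LTβR against ADU-S100 in Ebi3 (-0.037) and Il18 (0.18) and the interaction in Il12a (-0.071). With edgeR and TMM, the sign turned for ADU-S100 against untreated in Il27 (0.002103) and Il18r1 (-0.002134), combination against ADU-S100 in Il18 (0.039) and the interaction in Ebi3 (0.006). With edgeR and DESeq2's size factors, the sign turned for ADU-S100 against untreated in Il18r1 (-0.006952), combination against ADU-S100 in Il18 (0.028) and the interaction in Ebi3 (0.01655). With DESeq2, the sign turned for ADU-S100 against untreated in Il18r1 (-0.004829, with no adjusted p given), combination against ADU-S100 in Il18 (0.029) and the interaction in Ebi3 (0.01389). Leaving out 1 tumor turned the sign for anti-LTβR against untreated in Il12b (-0.11 to 0.12), ADU-S100 against untreated in Il12a (-0.064 to 0.36), Il27 (-0.26 to 0.10), Il12rb2 (-0.033 to 0.28) and Il18r1 (-0.025 to 0.091), combination against anti-LTβR in Il12a (-0.052 to 0.47), Il18 (-0.025 to 0.12) and Il18bp (-0.004852 to 0.19), combination against ADU-S100 in Il18 (-0.071 to 0.042) and Il18rap (-0.009335 to 0.10) and anti-LTβR against ADU-S100 in Il12a (-0.093 to 0.38) and Il18 (-0.14 to 0.00976), none of them called.

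Of the genes whose sign turned, Il27 (combination against untreated), Il12b and Il18bp (combination against ADU-S100) were called in the reported fits, and Il18 passed with Ptprc as a covariate in combination against ADU-S100 tumors (adjusted p = 0.0145, limma). Deviations of same-numbered tumors correlated by a mean of -0.0855 to 0.186 by comparison, and over 0.1 in 2 to 6 of 8 pairs, so the numbers were not taken as pairs. With the replicate block Il12rb2 lost its call for anti-LTβR against untreated tumors (adjusted p = 0.0628, limma) and gained one for combination against anti-LTβR tumors (adjusted p = 0.0236). DESeq2 gave no adjusted p for 7 of the 10 genes in ADU-S100 against untreated tumors and for Il12a in anti-LTβR against ADU-S100 tumors, and a minimum of 10 in every library could not be fitted for genes below it. The Il18 to Il18bp ratio and the pair correlations kept their calls under all 24 alternatives run for them. Few reads limit Il12a, Il12b and Il27.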

Other observations

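Combination tumors 4 and 8 were the lowest of their group in Il18bp, Il12rb1 and Il12rb2, and they also had the lowest means of T cell markers in the group (7.29 and 7.26 on the log2 scale, against 7.49 to 8.08 in the other 6). Their Il18r1 values, 144.7 and 153.5 normalized counts, were nevertheless above every tumor of the other 3 groups.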
